A study of Mus musculus with 8 samples.

Results

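The HSC transcription factor core described here is a set of 10 genes, Gata2, Runx1, Tal1, Lmo2, Lyl1, Fli1, Erg, Meis1, Mecom and Hlf, picked by name from the 55401 gene records of a mouse RNA-seq count table. Haematopoietic stem cells (HSCs) sit in the marrow, self-renew and produce every blood lineage. About 3000 of them per sample were sorted by flow cytometry from marrow of 8-week-old C57BL/6 mice. Which surface markers defined the gate is not stated in the labels. In the 4 Nynrin CKO libraries (Nynrinfl/flTie2-Cre) both floxed Nynrin alleles were exposed to Cre recombinase under the Tie2 promoter, known to work in endothelial and haematopoietic cells. The 4 control libraries (Nynrinfl/fl, labelled wild type) carried the floxed alleles without Cre. With no Cre in the controls, effects of Cre and of Nynrin loss cannot be told apart, nor can deletion in HSCs and in endothelium. Nothing in the labels ties each library to its own mouse. The p-values therefore measure only how far these libraries spread, which may be technical.

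The 10 factors are the DNA-binding proteins, with 1 bridging protein, that hold the stem cell programme of mouse blood in place. Gata2, Runx1, Tal1, Lmo2, Lyl1, Fli1 and Erg, known as the heptad, bind together at enhancers of blood stem and progenitor cells, including their own. Meis1, Mecom and Hlf act beside them and are known from mouse studies for their roles in HSC maintenance, with Mecom and Hlf fading early as stem cells differentiate.

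Total counts ran from 43998525 to 56437299 per Nynrin CKO library and from 36942835 to 50260720 per control library, and each factor had at least 860 counts in every library. Libraries fell into sets that genotype does not explain. Olfactory and vomeronasal receptor genes took 142 to 225 CPM (counts scaled to a common library size) in Nynrin CKO 3 and 4 and control 4, and 891 to 1670 CPM in the other 5 libraries. The 5 libraries form the set with more receptor reads, and the 3 the set with few. Nynrin CKO 1 and 2 also resembled each other closely, as did 3 and 4. Xist counts were high in controls 3 and 4 only, at 177719 and 224087, against 245 to 471 in the other libraries. High Xist was thus not balanced between the groups, and a fit of the libraries with low Xist is given below. Nynrin itself averaged 10.4 ± 2.49 CPM in Nynrin CKO and 37.3 ± 8.56 CPM in controls (SD, n = 4 each, edgeR adjusted p = 0.0345). In the libraries with low Xist alone Nynrin had a log2 fold change of -2.07 (edgeR adjusted p = 0.107). Markers of HSCs were present in all 8 libraries, and the endothelial protein C receptor gene Procr ran from 37.8 to 64.5 CPM in Nynrin CKO and from 34.6 to 60.6 CPM in controls. Fgd5, another marker of mouse HSCs, ran from 18.4 to 20.8 CPM in Nynrin CKO and from 23.9 to 50.3 CPM in controls, with no overlap (log2 fold change -0.75, edgeR adjusted p = 0.108). Slamf1, Mllt3 and Ctnnal1 were also below 0, at -0.48, -0.47 and -0.40, with overlapping libraries and edgeR adjusted p from 0.226 to 0.392.

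None of the 10 factors passed the test across all genes. The comparison asks whether the transcription factors of HSC identity differ in level where Nynrin is deleted. Counts were tested gene by gene with edgeR's quasi-likelihood test and Benjamini-Hochberg adjustment over 27573 genes, at an adjusted p threshold of 0.05. In that test 2.8% of all genes passed, in either direction. A factor that did not pass may still differ: in simulated counts the test recovered 28 of 100 genes changed 2-fold. All 10 factors were tested, 3 with a log2 fold change (Nynrin CKO over control) above 0, as 44.5% of all genes had, and 7 below 0, and their median was -0.09, against -0.09 over all genes tested. That likeness depended on the genes compared: among genes with a mean of at least 10 CPM, as all 10 factors had, the medians were -0.26 for the factors and 0.01 for all genes. At an unadjusted p under 0.05 there were 2 of 10, Mecom and Hlf, beside 18.9% of all genes, or 5.78% counting lower genes alone. For 9 of the 10 the Nynrin CKO and control libraries overlapped. Mecom was the exception, with its 4 Nynrin CKO libraries below all 4 controls, where 14.3% of all genes did not overlap in one direction or the other, 4.83% with Nynrin CKO below and 9.52% with Nynrin CKO above. In bulk samples such as these, fewer cells of a type and less RNA per cell cannot be told apart.

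**Figure D1:**
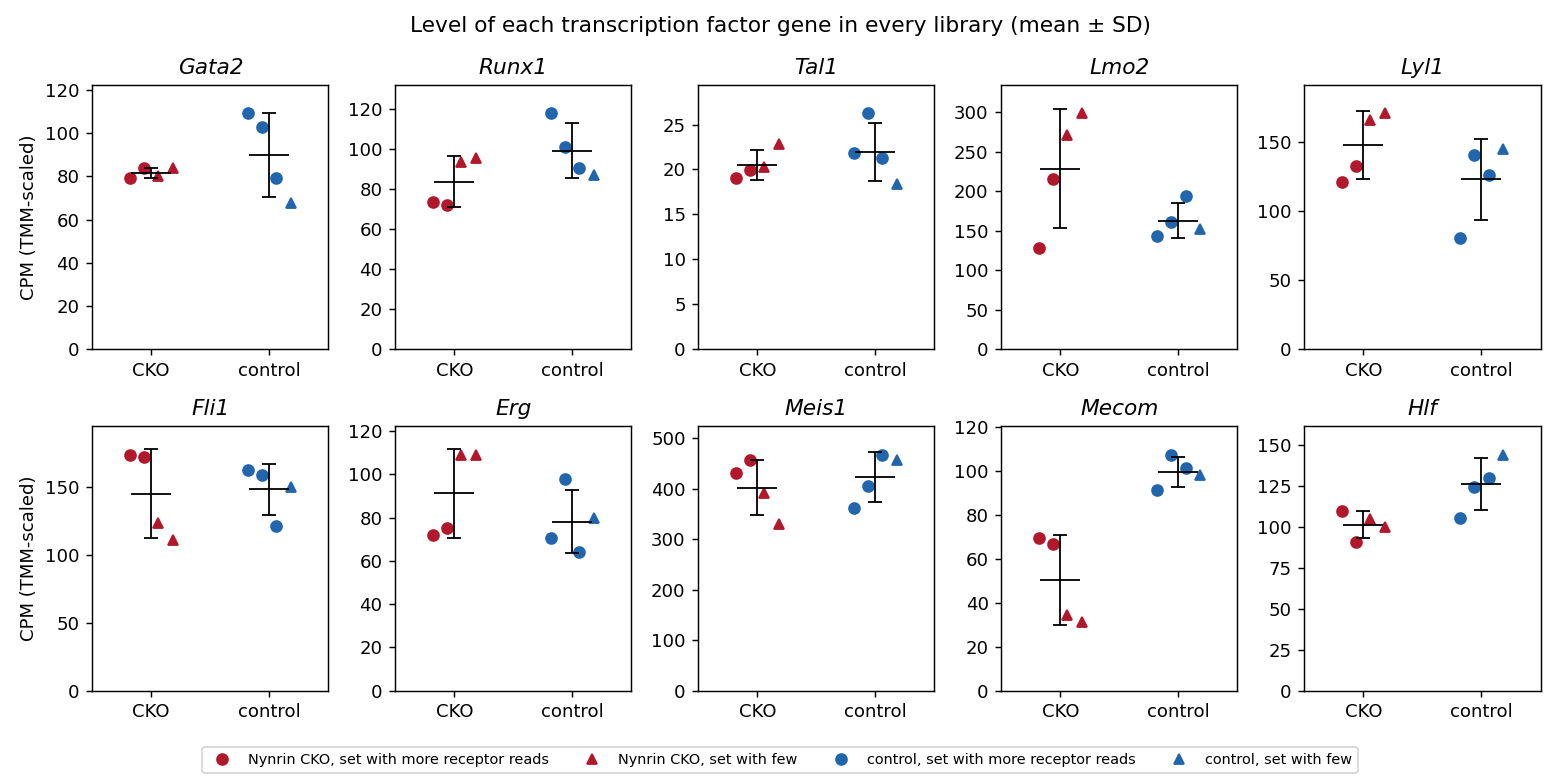
Level of each of the 10 factors in CPM scaled by TMM factors, 1 point per library, Nynrin CKO on the left and control on the right of each panel, with the mean and SD of 4 libraries. Circles are libraries of the set with more receptor reads and triangles those of the set with few; Mecom is the panel in which the groups do not overlap, from 31.1 to 69.7 CPM in Nynrin CKO and from 91.4 to 107.5 CPM in controls.

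Gata2 is the GATA zinc finger factor needed to form and keep HSCs (ENSMUSG00000015053, mm10 chromosome 6 from 88193891 to 88207032, plus strand). It was at 79.0, 83.6, 79.9 and 83.6 CPM in Nynrin CKO 1 to 4, against 109.1, 102.9, 79.3 and 67.8 CPM in controls 1 to 4. The Nynrin CKO values lay within the range of the controls, which spread far more: the coefficient of variation was 2.94% in Nynrin CKO and 21.7% in controls. Nynrin CKO over control was -0.14 on the log2 scale (standard error 0.15, edgeR adjusted p = 0.712).

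Tal1 and Lyl1 encode closely related basic helix-loop-helix factors that bind E-box DNA as partners of E proteins and can stand in for each other in adult mouse HSCs. Tal1 (chromosome 4 from 115056426 to 115071755) was the factor with the fewest reads, at 19.1, 19.9, 20.3 and 22.9 CPM in Nynrin CKO, against 21.9, 26.3, 21.3 and 18.4 CPM in controls. All 4 Nynrin CKO values fell inside the control range (log2 fold change -0.10, standard error 0.14, edgeR adjusted p = 0.786). Lyl1 (chromosome 8 from 84701449 to 84704940) measured 121.0, 132.4, 165.8 and 170.5 CPM in Nynrin CKO and 80.2, 140.2, 126.2 and 144.5 CPM in controls. Nynrin CKO 3 and 4 were above every control and 1 and 2 were not (log2 fold change 0.26, standard error 0.20, edgeR adjusted p = 0.560). The Lyl1 record lies inside the span of Nfix, on the opposite strand and sharing 4 exonic bases, and Nfix held 13.7% as many counts.

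Lmo2 encodes a LIM-only protein that binds no DNA itself and bridges Tal1 or Lyl1 to GATA factors through Ldb1. It lies on chromosome 2 from 103957986 to 103981878. Its level was 128.4, 215.6, 271.0 and 298.7 CPM in Nynrin CKO, against 143.8, 161.5, 193.9 and 151.8 CPM in controls. Nynrin CKO 2 to 4 were above all controls while Nynrin CKO 1 was below all of them. The mean was 228 ± 75.1 CPM in Nynrin CKO and 163 ± 21.96 CPM in controls (SD, n = 4 each), giving 0.49 on the log2 scale (standard error 0.24, edgeR adjusted p = 0.312). That was the highest fold change of the 10, but 0.05 among libraries with more receptor reads, against 0.91 among those with few.

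Fli1 and Erg are paralogous ETS factors, both also used by megakaryocytes and endothelium. Fli1 (chromosome 9 from 32422204 to 32542861) was at 174.3, 172.3, 123.7 and 111.0 CPM in Nynrin CKO, against 163.1, 158.9, 121.8 and 150.5 CPM in controls. Erg (chromosome 16 from 95359169 to 95586593) was at 72.0, 75.2, 109.2 and 109.1 CPM in Nynrin CKO, against 70.6, 97.8, 64.2 and 80.0 CPM in controls. In Nynrin CKO 1 and 2 Fli1 was above every control, and in 3 and 4 Erg was. Over the groups the log2 fold changes were -0.03 for Fli1 and 0.23 for Erg, with standard errors of 0.17 and 0.19 (edgeR adjusted p = 0.954 and adjusted p = 0.607).

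Runx1, the Runt-domain factor required for HSCs to arise in the embryo, lies on chromosome 16 from 92601466 to 92826149. It measured 73.5, 72.3, 93.6 and 95.8 CPM in Nynrin CKO, against 117.9, 101.1, 90.7 and 87.3 CPM in controls. Nynrin CKO 1 and 2 were below every control, and 3 and 4 were within the control range. As a log2 fold change this was -0.24 (standard error 0.14, edgeR adjusted p = 0.413).

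Meis1, a TALE homeodomain factor that works with Pbx and Hox proteins and restrains HSC cycling and oxidative metabolism in mice, had the most reads of the 10. The gene spans chromosome 11 from 18879817 to 19018985. Its values were 430.1, 455.7, 391.4 and 329.9 CPM in Nynrin CKO and 361.6, 405.9, 467.5 and 457.3 CPM in controls. Both groups covered nearly the same range (log2 fold change -0.07, standard error 0.14, edgeR adjusted p = 0.846).

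Mecom showed the largest difference of the 10 factors. The gene encodes zinc finger proteins of the PRDM family, a longer MDS1-EVI1 form with the PR domain and a shorter EVI1 form from a downstream start, and mouse HSCs lose self-renewal without it. It lies on chromosome 3 from 29951296 to 30548008 on the minus strand (ENSMUSG00000027684). Raw counts were 3146, 3232, 1557 and 1292 in Nynrin CKO 1 to 4, against 3785, 4516, 4305 and 5143 in controls 1 to 4. Scaled, these were 69.7, 66.7, 34.3 and 31.1 CPM in Nynrin CKO and 91.4, 107.5, 101.2 and 98.2 CPM in controls. Every Nynrin CKO library was below every control, and Nynrin CKO 3 and 4 were below 1 and 2. Nynrin CKO 3 and 4 also had more mitochondrial counts, 9.90% and 9.86%, than Nynrin CKO 1 and 2, at 6.78% and 6.56%, and controls, at 5.98% to 7.44%. Their TMM factors, 0.805 in both, were lower than the 1.02 to 1.16 of the other libraries. The part of these values in the Mecom difference was not tested. The mean was 50.4 ± 20.6 CPM in Nynrin CKO and 99.6 ± 6.68 CPM in controls (SD, n = 4 each). Nynrin CKO thus had 50.7% of the mean in controls.

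The log2 fold change of Mecom, -0.98, had a standard error of 0.26, and edgeR's adjusted p was 0.0746, short of the threshold. The two-sided exact permutation p on log2(CPM + 1) was 0.0286, the smallest that 4 against 4 libraries can give. By library set the difference came to -0.55 with more receptor reads and -1.59 with few, where 1 control stands alone. Whether the sets differ was not tested. The call depended on the fit: Mecom passed with DESeq2 (adjusted p = 0.00196), with limma-voom (adjusted p = 0.0475), with a library set term in edgeR (adjusted p = 0.0250), among genes of at least 10 CPM (adjusted p = 0.0356) and in the set with more receptor reads alone (log2 fold change -0.56, edgeR adjusted p = 0.0283). When Nynrin CKO 1 and 2, and 3 and 4, were summed as single libraries the adjusted p was 0.443. Log2 fold changes also followed gene length in these libraries, with a median of -0.13 among the longest 20% of genes, where Mecom lies. With a length trend removed per library Mecom was at -0.79 (edgeR adjusted p = 0.219). In the libraries with low Xist alone Mecom was at -0.96 (edgeR adjusted p = 0.232).

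The read counts are per gene and do not separate starts of transcription. The table of RefSeq promoters (GRCm38.p6) lists 2 starts for Mecom, both on the minus strand, and 1 for Hlf and Lyl1. They are shown because Mecom and Hlf had the 2 lowest fold changes of the set, and Lyl1 as a factor with the opposite sign. Each run is the 250 bases before a start, 5′ to 3′, and capitals mark matches to any of 6 motifs searched on both strands: AGATAA for GATA factors, CCGGAA for ETS factors, TGTGGT for Runx, CAGCTG for E-box binders, TGACGTCA for CREB-type factors and TGACAG for Meis.
Mecom upstream start, chr3:30509760-30510009: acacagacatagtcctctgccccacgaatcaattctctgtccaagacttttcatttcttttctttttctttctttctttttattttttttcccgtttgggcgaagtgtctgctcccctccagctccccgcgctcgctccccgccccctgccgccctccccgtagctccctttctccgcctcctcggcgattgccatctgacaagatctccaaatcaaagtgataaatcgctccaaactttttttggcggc
Mecom downstream start, chr3:30013205-30013454: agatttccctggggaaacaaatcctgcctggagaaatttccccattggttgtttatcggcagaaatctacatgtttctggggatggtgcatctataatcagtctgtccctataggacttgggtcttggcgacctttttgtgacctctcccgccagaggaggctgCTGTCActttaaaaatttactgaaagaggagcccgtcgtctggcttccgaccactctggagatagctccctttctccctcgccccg
Hlf, chr11:90390918-90391167: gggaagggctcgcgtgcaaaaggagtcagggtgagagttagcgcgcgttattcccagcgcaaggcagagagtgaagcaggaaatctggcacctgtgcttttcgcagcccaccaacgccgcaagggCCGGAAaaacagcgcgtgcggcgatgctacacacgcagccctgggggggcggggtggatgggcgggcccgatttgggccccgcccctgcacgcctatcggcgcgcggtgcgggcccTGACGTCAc
Lyl1, chr8:84701207-84701456, plus strand: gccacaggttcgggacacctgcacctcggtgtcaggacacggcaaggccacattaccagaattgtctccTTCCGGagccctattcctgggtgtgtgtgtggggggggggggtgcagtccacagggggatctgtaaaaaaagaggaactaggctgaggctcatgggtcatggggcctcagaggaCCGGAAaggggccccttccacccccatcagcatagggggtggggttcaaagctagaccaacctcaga
The upstream Mecom window held none of these letters and the downstream one held 1 TGACAG on its reverse strand. The Hlf window, also on the minus strand, held 1 CCGGAA and, beginning 9 bases before the start, 1 TGACGTCA, which 1.55% of the 32851 promoter windows of the same length hold. Lyl1 held CCGGAA on both strands, and 12% of all windows hold it at least once. Among the 14 windows of 8 factors with an entry, 4 held CCGGAA, 2 AGATAA, where 9.99% of all windows do, 2 TGACAG, where 15.9% do, and 1 TGTGGT, where 14.0% do. CAGCTG was in 0 of the 14, and in 13% of all windows. No match overlapped another. A match describes letters, not binding.

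Prdm16, the closest paralog of Mecom and also needed for mouse HSC maintenance, fell in Nynrin CKO. It lies on chromosome 4 from 154316125 to 154636866. It was at 33.8, 36.3, 31.6 and 33.2 CPM in Nynrin CKO, against 64.9, 78.6, 55.7 and 61.1 CPM in controls. All 4 Nynrin CKO libraries lay close together and far below the lowest control. The level was 33.7 ± 1.97 CPM in Nynrin CKO and 65.1 ± 9.78 CPM in controls (SD, n = 4 each), or -0.95 on the log2 scale (standard error 0.12, edgeR adjusted p = 0.0345, exact permutation p = 0.0286). Unlike for Mecom, the values within library sets were nearly equal, -0.92 in both. The edgeR adjusted p was 0.0240 without control 4 and 0.0488 without control 3, 0.0545 to 0.123 without any other single library, 0.434 with the Nynrin CKO pairs summed (log2 fold change -1.002) and 0.176 with the length trend removed (-0.75). The edgeR adjusted p was 0.107 in the libraries with low Xist alone (-1.05) and 0.069 with a term for replicate number (-0.94). Over all 21 alternatives the log2 fold change ran from -1.21 to -0.75. Prdm16 is also among the longest 20% of genes.

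**Figure D2:**
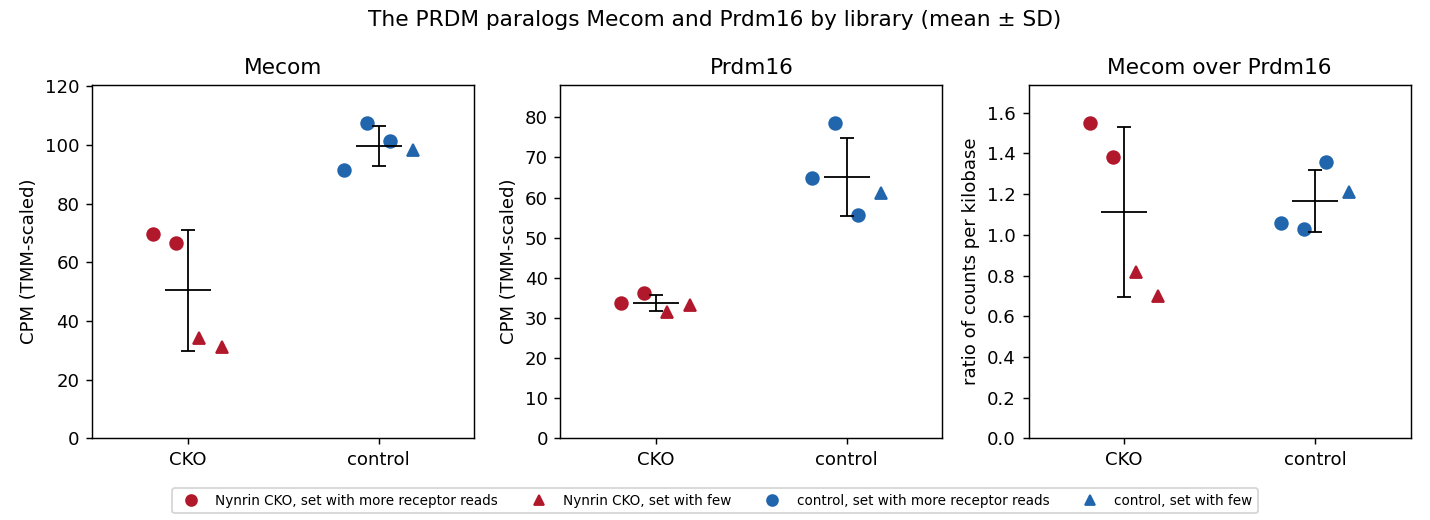
Mecom and Prdm16 in CPM and their ratio in counts per kilobase of exon, 1 point per library with the mean and SD of 4, Nynrin CKO left and control right. Prdm16 is near 33.7 CPM in all 4 Nynrin CKO libraries, while Mecom is lower in Nynrin CKO 3 and 4 than in 1 and 2, so that the ratio is 1.55 and 1.38 in Nynrin CKO 1 and 2 and 0.82 and 0.70 in Nynrin CKO 3 and 4, against 1.03 to 1.36 in controls.

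Hlf, a PAR-domain leucine zipper factor whose expression marks immature HSCs, was second to Mecom. It occupies chromosome 11 from 90336536 to 90390895. It measured 110.1, 90.7, 105.1 and 100.2 CPM in Nynrin CKO and 105.8, 124.5, 130.2 and 144.4 CPM in controls. Nynrin CKO 2 to 4 were below all controls, and Nynrin CKO 1 was above control 1 alone. With means of 102 ± 8.26 CPM in Nynrin CKO and 126 ± 16.0 CPM in controls (SD, n = 4 each), Hlf came to -0.31 on the log2 scale (standard error 0.12, edgeR adjusted p = 0.185, exact permutation p = 0.0571). Among libraries with more receptor reads the value was -0.26, and among those with few -0.49. Hlf was at -0.14 in the libraries with low Xist alone (edgeR adjusted p = 0.706). With the length trend removed Hlf was at -0.19 (edgeR adjusted p = 0.698). The lowest value was -0.58, with total counts (edgeR adjusted p = 0.0762). Hlf passed under 1 alternative, a minimum of 10 CPM (-0.49, edgeR adjusted p = 0.0264).

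The sign of the difference held within both library sets for 4 of the 10 factors and not for the other 6. Lmo2 and Lyl1 were positive in both sets and Mecom and Hlf negative in both. Over all libraries, removing the length trend moved Lyl1 from 0.26 to 0.04 and Lmo2 from 0.49 to 0.33. Mecom moved from -0.98 to -0.79 and Hlf from -0.31 to -0.19. Genes with 57 to 1992 bases of exon, among them Lyl1, had a median log2 fold change of 0.35. Those with 1992 to 3276 bases, among them Lmo2, had 0.21. The part of length in the signs within sets was not tested. Gata2, Runx1, Tal1 and Erg were negative in the set with more receptor reads, at -0.26, -0.50, -0.25 and -0.07, and positive in the set with few, at 0.27, 0.12, 0.23 and 0.45. Fli1 and Meis1 had the reverse, 0.23 and 0.11 in the set with more and -0.36 and -0.34 in the set with few. The medians of the 10 factors were -0.16 and 0.17, where all genes tested had -0.04 and 0.06. Values in the set with few rest on control 4 alone, and a difference between sets was not tested.

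**Figure D3:**
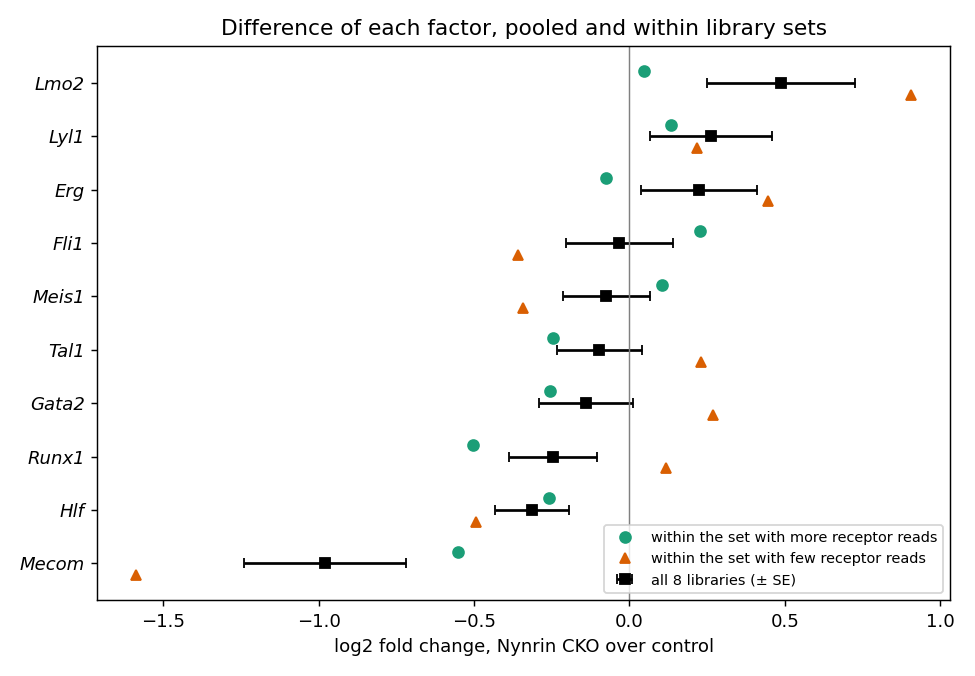
Log2 fold change (Nynrin CKO over control) of each factor over all 8 libraries, as squares with standard errors, and within the sets with more (circles) and few (triangles) receptor reads. Mecom is the lowest at -0.98, and 6 factors have circle and triangle on opposite sides of 0.

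Divided by exon length, the factors ran over a wide range. Levels were highest for Lmo2, at 105.5 ± 34.7 CPM per kilobase in Nynrin CKO and 75.2 ± 10.1 in controls, and for Lyl1, at 81.9 ± 13.6 in Nynrin CKO and 68.2 ± 16.4 CPM per kilobase in controls (SD, n = 4 each). Next came Fli1, at 41.7 ± 9.39 in Nynrin CKO and 42.6 ± 5.33 CPM per kilobase in controls, and Meis1, at 38.2 ± 5.197 in Nynrin CKO and 40.2 ± 4.66 in controls. Erg had a level of 26.4 ± 5.93 CPM per kilobase in Nynrin CKO and 22.5 ± 4.23 in controls. Hlf and Gata2 were near each other, Hlf at 15.2 ± 1.24 in Nynrin CKO and 18.9 ± 2.39 in controls and Gata2 at 15.1 ± 0.44 in Nynrin CKO and 16.6 ± 3.61 in controls. Runx1 was at 6.97 ± 1.05 CPM per kilobase in Nynrin CKO and 8.26 ± 1.15 in controls. The lowest levels were those of Mecom, at 4.06 ± 1.66 in Nynrin CKO and 8.01 ± 0.54 in controls, and Tal1, at 4.69 ± 0.38 in Nynrin CKO and 5.01 ± 0.74 CPM per kilobase in controls. In Nynrin CKO Mecom stood below Tal1 and was the last of the 10, with overlapping libraries, while in controls it stood above Tal1 with no overlap. Neighbours in the control order overlapped in their libraries except Meis1 and Erg, Gata2 and Runx1, and Mecom and Tal1. In controls Lmo2 was at the 98.3 percentile of all tested genes by this measure and Tal1 at the 72.5 percentile.

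**Figure D4:**
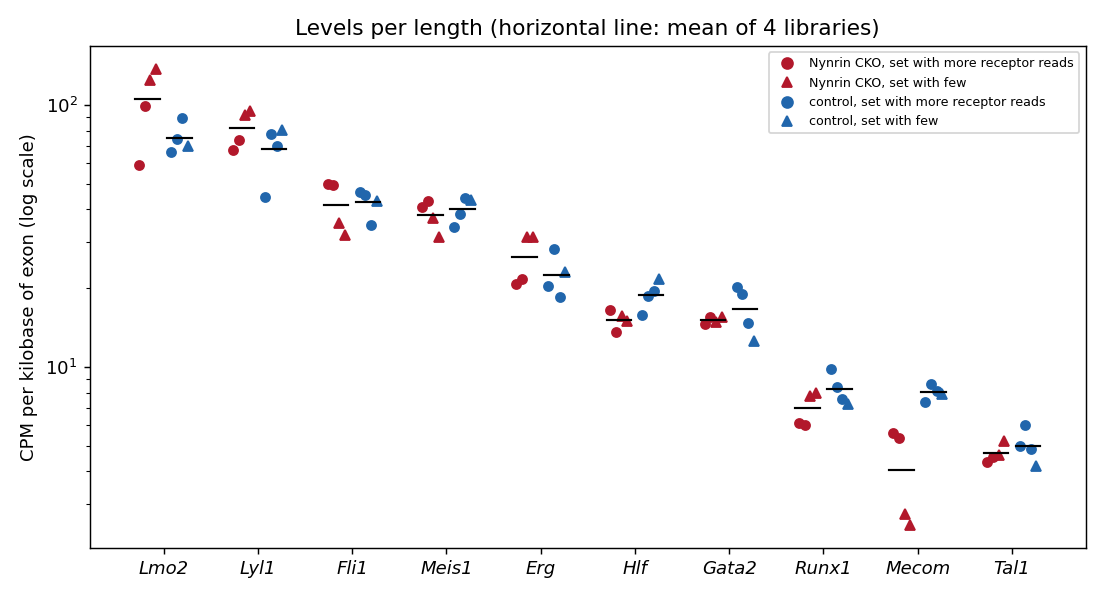
CPM per kilobase of exon on a log axis for the 10 factors in order of their control mean, 1 point per library, Nynrin CKO left and control right within each gene, with a line at the mean of 4. Lmo2 leads with means of 105.5 in Nynrin CKO and 75.2 in controls, and Mecom is the gene whose Nynrin CKO mean, 4.06, lies clear of its control mean, 8.01.

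Ratios between factors within a library do not depend on scaling, but they were not adjusted for the length trend. These pairs were chosen after the values were seen and are given without a test. Mecom over Meis1, both long genes, was 0.137, 0.124, 0.0743 and 0.0798 in Nynrin CKO and 0.214, 0.224, 0.183 and 0.182 in controls, with no overlap. Mecom over Hlf was 0.340, 0.395, 0.175 and 0.167 in Nynrin CKO and 0.464, 0.464, 0.418 and 0.366 in controls, with Nynrin CKO 2 above control 4. Mecom over Prdm16 overlapped widely, at 1.55, 1.38, 0.816 and 0.701 in Nynrin CKO and 1.06, 1.03, 1.36 and 1.21 in controls. For the related pair Lyl1 over Tal1 the ratio averaged 17.4 ± 2.02 in Nynrin CKO and 13.9 ± 4.21 in controls (SD, n = 4 each), with overlap. Lyl1 has 1800 bases of exon and Tal1 4379, and the part of length in this ratio was not tested. Erg over Fli1 was 0.415, 0.439, 0.888 and 0.988 in Nynrin CKO and 0.435, 0.619, 0.530 and 0.535 in controls. Nynrin CKO 3 and 4 thus had far more Erg relative to Fli1 than any other library, and Nynrin CKO 1 was below all controls. Lmo2 over its partner Ldb1 was 12.1, 19.2, 22 and 24.2 in Nynrin CKO, against 12.3, 12.7, 15.9 and 10.8 in controls, so 3 of the 4 Nynrin CKO libraries exceeded every control.

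Among genes for proteins that work in complexes with these factors, 20 of 26 had a log2 fold change above 0, as 44.5% of all genes had, and 4 had all Nynrin CKO libraries above all controls, as 9.52% of all genes had. Of the 26 partner and cofactor genes, all tested, 1 passed upward and 0 downward, beside 2.22% and 0.588% of all genes in those directions. The median log2 fold change of the 26 was 0.19, against -0.09 over all genes tested. That background depended on the genes compared. Among genes with a mean of at least 1 CPM, medians ran from 0.35 in the shortest 20% to -0.13 in the longest 20%. In the fit of genes of at least 10 CPM, scaled anew, the median of all genes was 0.01. The median of the 26 was not computed in that fit. The gene that rose was Id2, whose protein binds E proteins without binding DNA and so withholds them from Tal1 and Lyl1. Id2 (chromosome 12 from 25093799 to 25097140) was at 11.6, 13.8, 24.1 and 23.0 CPM in Nynrin CKO, against 7.80, 6.21, 6.74 and 6.19 CPM in controls. All Nynrin CKO libraries were above all controls, 3 and 4 the most (log2 fold change 1.43, standard error 0.25, edgeR adjusted p = 0.0394). Libraries with more receptor reads gave 0.87 and those with few 1.93. The edgeR adjusted p was 0.0401 without control 4, 0.0545 to 0.166 without any other single library, 0.434 with the Nynrin CKO pairs summed (log2 fold change 1.39), 0.177 with the length trend removed (1.31) and 0.0621 with RLE factors (1.39). In the libraries with low Xist alone the edgeR adjusted p was 0.163 (1.41), and with a term for replicate number 0.0745 (1.37). Over all 21 alternatives the log2 fold change ran from 0.86 to 1.60. Tcf4, an E-protein gene named after its values were seen, was at 158, 156, 221 and 234 CPM in Nynrin CKO, against 112, 120, 113 and 131 CPM in controls, with no overlap (log2 fold change 0.69, edgeR adjusted p = 0.0501). The partners with the highest level per kilobase were Gfi1b, a transcriptional repressor that acts within the erythroid and megakaryocytic lines, and Ssbp2, which stabilises Ldb1. Gfi1b was at 78.8 ± 32.3 CPM in Nynrin CKO and 60.8 ± 15.2 CPM in controls (SD, n = 4 each). Ssbp2 was at 315 ± 57.5 CPM in Nynrin CKO and 250.5 ± 31.0 CPM in controls (SD, n = 4 each).

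Family relatives of the factors gave 1 lower gene, Prdm16, and 0 higher among 17 tested of 19. Of all genes 0.588% passed lower and 2.22% higher. The median of the relatives was 0.105, against -0.09 over all genes tested, a background with the same limit as for the partners. Tal2 and Lmo3 had too few counts to be tested. The relatives with the highest level per kilobase were the ETS genes Elf1, at 250 ± 21.9 CPM in Nynrin CKO and 242 ± 40.9 CPM in controls, and Etv6, at 133 ± 17.6 CPM in Nynrin CKO and 177 ± 17.99 CPM in controls (SD, n = 4 each). Etv6 was below every control in all 4 Nynrin CKO libraries, as 4.83% of all genes were (edgeR adjusted p = 0.108). Among 33 other regulators of HSCs Prdm16 was again the 1 that fell and 0 rose, beside the same shares of all genes. The median of the 33 was 0.11. The early response factor gene Egr1 was among the highest there per kilobase and differed widely between libraries, with 203, 219, 2440 and 2400 CPM in Nynrin CKO and 593, 523, 317 and 842 CPM in controls. Myc stood beside it, at 457, 454, 880 and 885 CPM in Nynrin CKO and 447, 574, 537 and 559 CPM in controls.

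Genes reported in mouse or human blood cells as targets of these factors included none that passed in edgeR, among 22 tested, with 5 at an unadjusted p under 0.05, where 2.8% of all genes passed and 18.9% had such a p. Their median was 0.275, against -0.09 over all genes tested, a background with the same limit as for the partners. Trib2, which encodes a pseudokinase, was at 12.7, 14.6, 8.99 and 4.90 CPM in Nynrin CKO, against 18.6, 20.5, 25.2 and 30.5 CPM in controls, with no overlap (log2 fold change -1.20, edgeR adjusted p = 0.0725). Spi1, which encodes the myeloid and lymphoid factor PU.1, was at 110, 123, 204 and 203 CPM in Nynrin CKO, against 92.1, 101, 92.2 and 126 CPM in controls (log2 fold change 0.64, edgeR adjusted p = 0.147). The stem cell factor receptor gene Kit, among the targets with the highest level per kilobase, averaged 1832 ± 594 CPM in Nynrin CKO and 1504 ± 137 CPM in controls (SD, n = 4 each).

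**Figure D5:**
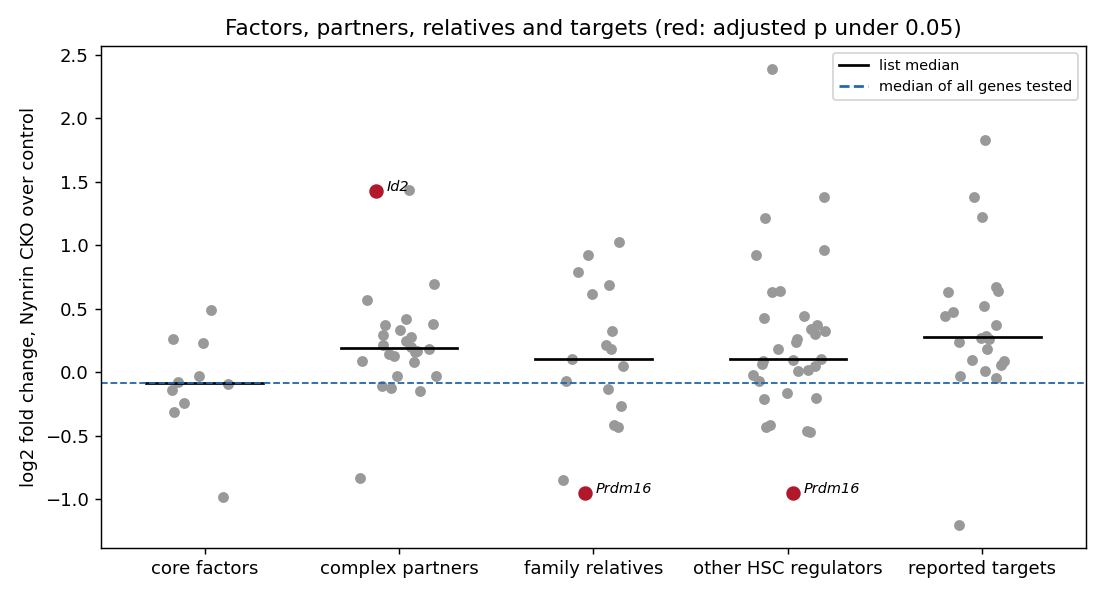
Log2 fold change (Nynrin CKO over control) of every tested gene of the core and of 4 further lists, with the median of each list as a black line and that of all genes tested, -0.09, dashed. Id2 and Prdm16, in red, are the genes that passed, and Prdm16 stands in 2 lists.

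Markers of other blood cells stood at different levels between the groups and between the library sets, and their part in the differences above was not tested. Summed over 12 genes, neutrophil markers were at 485, 532, 4110 and 4140 CPM in Nynrin CKO, against 207 to 361 CPM in controls, and 3 of the 12 passed upward, where 2.22% of all genes did. Erythroid markers, 12 genes of which 3 rose, summed to 2170 to 2550 CPM in Nynrin CKO and 1160 to 1490 CPM in controls. B cell markers (9 genes, 0 passing) ran from 107 to 197 CPM in Nynrin CKO and from 43.9 to 56.5 CPM in controls. Jchain and Cd79b held most of that sum, and the other 7 genes ran from 7.14 to 19.2 CPM in Nynrin CKO and from 1.47 to 9.14 CPM in controls, with overlap. T and NK cell markers (9 genes, 1 higher) ran from 147 to 293 CPM in Nynrin CKO and from 59.5 to 87.3 CPM in controls. Nkg7 alone held most of it, and the other 8 genes, overlapping, ran from 12.2 to 28.3 CPM in Nynrin CKO and from 9.68 to 14.8 CPM in controls. Monocyte and macrophage markers (10 genes, 1 higher) summed to 446 to 768 CPM in Nynrin CKO and 317 to 387 CPM in controls. Mast cell and basophil markers (10 genes, 2 higher) were at 37.0, 31.4, 135 and 136 CPM in Nynrin CKO, against 10.3 to 31.7 CPM in controls. Endothelial markers (13 genes, 0 passing) ran from 320 to 534 CPM in Nynrin CKO and from 305 to 387 CPM in controls, and those of megakaryocytes (9 genes, 0 passing) from 164 to 392 CPM in Nynrin CKO and from 144 to 427 CPM in controls. No marker in these lists was at 0 in all 8 libraries. Cd48, which mouse HSCs lack and most progenitors carry, was at 37.1, 31.4, 196 and 185 CPM in Nynrin CKO, against 18.7 to 34.6 CPM in controls (edgeR adjusted p = 0.0806). It is 1 of 12 genes of the HSC list, of which 0 passed in edgeR. Without Cd48, Cd34 and Flt3, which progenitors carry, the other 9 summed to 3030 to 3650 CPM in Nynrin CKO and 2530 to 3440 CPM in controls.

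Genes whose values followed each factor most closely were sought among 9249 others with a mean of at least 10 CPM. Likeness was the root mean square difference of log2(CPM + 1) over the 8 libraries after each gene's mean was subtracted, so that 0 is an identical profile. For Mecom the nearest were Vps8, an endosomal tethering subunit gene, at 0.135, and Hspa12b, a heat shock family gene, at 0.143, where the median over all genes was 0.764. Vps8 was at 23.2, 21.1, 10.1 and 9.66 CPM in Nynrin CKO, against 26.8, 32.1, 25.4 and 25.7 CPM in controls. Hlf was nearest to Nars2 and Mthfd1l, at 0.0607 and 0.0662. Lmo2 had the most distant neighbours, Rpl21-ps15 at 0.145 and Zfp771 at 0.156. The remaining factors had a gene within 0.0522 to 0.109: Wrn for Gata2, Tmem106b for Runx1, Acsl3 for Tal1, Map7d1 for Lyl1, Ggcx for Fli1, Med16 for Erg and Hsph1 for Meis1. Among the 10 themselves Gata2 and Tal1 were closest, at 0.136, and Lmo2 and Mecom farthest apart, at 1.01.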

How the data were processed

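Per the file headers, the authors deposited raw counts of reads for each gene in each library. Per the submitters' processing notes the build is mm10. Aligner, counter and strand setting are not given in sources used here, so reads of overlapping records can fall on either. How cDNA was primed is likewise not given. All 8 libraries, each from about 3000 sorted cells and 5 ng of cDNA per the labels' protocols, were used.

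The counts went into edgeR 4.0.16 (R 4.3.3), where filterByExpr kept 27573 of 55401 genes, TMM factors scaled the libraries, and groups were compared by a robust quasi-likelihood F-test. CPM values use the same factors. Exact permutation tests were two-sided over 70 assignments on log2(CPM + 1). Alternatives were other scaling and filters, DESeq2 1.42.0, limma 3.58.1 (voom with quality weights), a replicate term, a library set term with sets divided at 300 CPM of receptor reads, pairs summed, a spline on gene length removed, and each library left out. Chosen after seeing the data were fits of the libraries with low Xist and of the set with more receptor reads. Differences within sets were contrasts of a fit over the group and set combinations, where control 4 is a lone sample taken to vary as the other libraries do. Exon lengths were merged exons of GENCODE M21, where 51957 records had the table's start and end. Simulated counts with known changes were used to test the script.

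The factors, the gene lists and the tests were chosen with earlier results of these data known. The 10 factors were always named. From each further list the genes that passed were named, up to 4 with the smallest p, or the 2 with the smallest p where none passed, with the 2 of highest CPM per kilobase, 1 of which is not reported here. The 2 genes most like each factor were sought among genes averaging 10 CPM or more with no clone or predicted-gene symbol, and 1 is given for most factors. Tcf4, the individual marker genes and the marker sums over part of a list were picked after the values were seen.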

Additional observations from a re-analysis of the deposited data

How the results depend on the processing

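Over 21 alternatives the 10 factors gave 210 fold changes, of which 187 kept their direction and their side of the threshold, 6 gained a call and 17 changed sign, with no sign change past the threshold. Mecom stayed negative throughout, from -1.19 to -0.56, with edgeR, DESeq2 or limma adjusted p from 0.00196 to 0.443, and Hlf from -0.58 to -0.14. Leaving out single libraries moved Mecom from -1.16 to -0.79 (edgeR adjusted p from 0.0682 to 0.212). The count of factors called lower was 2 with a minimum of 10 CPM (Mecom and Hlf) and 1, Mecom, with DESeq2, limma-voom, the library set term and the set with more receptor reads; it was 0 elsewhere, and 0 factors were called higher under any alternative.

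Counts of all genes called, 611 higher and 162 lower, depended strongly on the fit. They were 13 and 22 with RLE factors, 225 and 251 by upper quartile, 59 and 318 by total counts, 33 and 16 with no filter, 649 and 799 with a minimum of 10 CPM, 1714 and 981 with DESeq2, 1649 and 504 with limma-voom, 1221 and 408 with the library set term, 2 and 2 with the length trend removed, and 1311 and 857 in the set with more receptor reads. Summing pairs, or keeping low-Xist libraries alone, they were 0 and 0, with 3022 and 4930 genes at an unadjusted p under 0.05 in edgeR. Leaving out single libraries gave 1 to 1129 higher and 0 to 243 lower; apart from control 4, the most called lower was 4. The median log2 fold change of the 10 factors was -0.35 with total counts and -0.19 with upper-quartile factors, and that of all genes -0.34 and -0.20. The medians lay apart with a minimum of 10 CPM (-0.26 for the factors, 0.01 for all genes), with no filter (-0.07 for the factors, -0.33 for all genes) and with the length trend removed (0.005 for the factors, -0.14 for all genes). DESeq2 left 12847 genes without an adjusted p.

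The same-numbered libraries had correlated deviations of 0.153, 0.125, -0.129 and 0.28. Nynrin CKO 1, 2 and 4 each correlated best with the control of the same number, and Nynrin CKO 3 with control 4, at 0.268. Nynrin CKO 3 and 4 and control 4 also form the set with few receptor reads. These correlations therefore cannot tell whether the numbers pair the samples. With the replicate block edgeR called 0 genes higher and 0 lower, with 5144 at an unadjusted p under 0.05, and Mecom was at -1.07 (adjusted p = 0.0851).

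Signs changed, the cause not tested, for Lyl1 (-0.027) and Erg (-0.073) with total counts, for Fli1 (0.049) and Meis1 (0.041) with limma-voom, for Fli1 (0.015) with the library set term, for Runx1 (0.043) and Meis1 (0.12) with the length trend removed, for Meis1 (0.098) in the libraries with low Xist, and for Fli1 (0.22), Erg (-0.082) and Meis1 (0.098) in the set with more receptor reads. Over single libraries left out, Fli1 ran from -0.19 to 0.092 (positive values from 0.0063), Meis1 from -0.14 to 0.024 and Tal1 from -0.17 to 0.0065.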

Other observations

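Several records of noncoding or predicted genes lie inside the span of Mecom. Gm37024, on the opposite strand and with no shared exon, held 51.7% as many counts as Mecom over the 8 libraries. It was at 41.0, 42.9, 17.1 and 15.5 CPM in Nynrin CKO, against 43.0, 47.8, 53.8 and 48.0 CPM in controls, below every control in all 4 Nynrin CKO libraries and lower in 3 and 4 than in 1 and 2 (log2 fold change -0.73, edgeR adjusted p = 0.269). Gm38197, on the same strand, was at 8.78, 8.5, 3.46 and 5.62 CPM in Nynrin CKO, against 6.83, 10.3, 12.3 and 7.43 CPM in controls. Mecomos, an antisense gene that shares 81 exonic bases with Mecom, was at 2.39 to 4.21 CPM in Nynrin CKO, against 3.71 to 6.14 CPM in controls. Because the strand setting is not given, reads of Mecom and of these antisense records cannot be told apart where they overlap.

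Inside Fli1, Gm38346, on the same strand and with no shared exon, was at 9.37, 10.3, 15.4 and 15.8 CPM in Nynrin CKO, against 23.3, 24.1, 17 and 18.3 CPM in controls (log2 fold change -0.70, edgeR adjusted p = 0.101), with all Nynrin CKO libraries below all controls, while Fli1 itself overlapped between the groups.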
